A study of Mus musculus with 8 samples.

Results

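The genes described here tie integrins to the actin cytoskeleton: the talins Tln1 and Tln2, vinculin (Vcl), kindlin 2 (Fermt2), parvin alpha (Parva), the LIM protein PINCH1 (Lims1) and paxillin (Pxn). They were taken by symbol from a list of 10 genes, and 7 of these had a probe set that carries their symbol alone, out of 22180 genes measured. Ilk and Lims2 lay only on probe sets shared with other genes, and no probe set was listed for Ptk2, so these 3 are not analysed here. Each of the 7 genes, Tln1 and Tln2 included, had exactly 1 probe set. Their means over all arrays lay between the 63.5th percentile of all genes (Lims1) and the 95.9th (Parva).

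Integrins are receptors for extracellular matrix that carry no enzymatic function of their own and depend on proteins bound to their short inner tails. Talin binds the beta tail, switches the integrin to its active form together with kindlin, and pulls on actin; under load it opens sites for vinculin, which adds further links to actin. The complex of ILK, PINCH and parvin sits beside kindlin, and paxillin is a scaffold for signalling at the same site. In the kidney, podocytes hold on to the glomerular basement membrane by such adhesions. Talin 2 is the paralogue of talin 1 and can take over some of its work, which is why its level after a deletion of Tln1 is of interest.

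RNA came from glomeruli isolated from mice of 13 weeks that all had doxycycline for 3 weeks from an age of 8 weeks. The control group (2 arrays) is labelled only as control. The other mice are labelled Tln1 Pod-rtTA TetO-Cre, which by its name is a line in which doxycycline turns on Cre in podocytes to act on Tln1; the promoter is not named further, and which cells of the isolate lost the gene was not measured. These mice then had vehicle (Tln1 vehicle, 3 arrays) or valproic acid (Tln1 VPA, 3 arrays), a drug that inhibits histone deacetylases, for 2 weeks, while no vehicle is named for the control mice. Nothing in the labels ties an array to its own animal, so the spread behind every p value may be technical in part or in whole. The values are log2 expression values, where 1 unit is a doubling, and values of a group are given in the order of its array numbers.

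The arrays fell into 2 sets that cut across the groups. Changes within the sets are therefore also given for the 7 genes and for some of the other genes named. Set 1 held control 1, Tln1 vehicle 1 and 2 and Tln1 VPA 1 and 2, and set 2 held control 2, Tln1 vehicle 3 and Tln1 VPA 3. Between arrays of 1 set, 4.81% to 10.5% of the probe sets had exactly equal values, whereas arrays of different sets shared at most 2 such values in all 41345 probe sets. Which arrays were normalised together is not given in the sources used here, so a level in set 1 and a level in set 2 may not be on 1 scale. Defining podocyte markers such as Nphs1, Wt1 and Podxl were present in all arrays. The mean of the 10 measured podocyte markers was 7.16 to 7.93 in set 1 and 8.57 to 9.16 in set 2, and that of the 10 proximal tubule markers was 11.78 to 12.14 and 10.78 to 11.25. Macrophage markers averaged 4.49 to 5.34 and blood cell markers 3.49 to 3.86, against a median gene mean of 4.92. The macrophage mean was above that median in Tln1 vehicle 3 (4.99) and Tln1 VPA 3 (5.34), and the blood cell mean was below it in every array. The Y-linked gene Eif2s3y stood at 5.43 to 7.71 in the Tln1 arrays of set 1 against 3.80 in control 1, and at 2.69 to 2.91 in set 2. The X-linked gene Xist was at 7.38 to 10.94 over all arrays. The part of these differences in the results was not tested.

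The question for the talins was whether Tln2 is higher where Tln1 has been targeted. In these isolates it was not: Tln2 was lower in all 6 Tln1 arrays than in both control arrays. Of all genes, 3.59% lay below control without overlap in Tln1 vehicle and 3.98% in Tln1 VPA. Tln1 itself, measured in the whole isolate, differed little between the groups. Neither the Tln2 nor the Tln1 difference passed the test over all genes. In it, limma called 0 of 22180 genes (0%) at an adjusted p below 0.05 in each of the 3 comparisons. An unadjusted p below 0.05 was found for 322 genes (1.45%) in Tln1 vehicle against control, 280 (1.26%) in Tln1 VPA against Tln1 vehicle and 414 (1.87%) in Tln1 VPA against control; of the 7 genes, 0, 0 and 1 had one. Podocytes are 1 cell type among several in the isolate, so a gain of Tln2 within podocytes alone was not measured. Fewer cells of a type and less RNA per cell cannot be told apart in such samples, for any gene below.

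Tln1 stood at 8.97 and 8.64 in the control arrays, at 8.95, 8.95 and 8.60 in the 3 Tln1 vehicle arrays, and at 8.76, 8.88 and 8.59 in the 3 Tln1 VPA arrays. The groups overlap, and the low value in each is its array of set 2. The change was 0.03 (SE 0.17, adjusted p = 1.00) in Tln1 vehicle against control and -0.06 (SE 0.17, adjusted p = 1.00) in Tln1 VPA against control. Within sets 1 and 2, Tln1 vehicle lay 0.02 and 0.04 units below control (changes of -0.018 and -0.037), and Tln1 VPA at -0.15 and -0.05. All 6 Tln1 arrays were thus below the control array of their own set, by at most 0.21 units (a difference of -0.21 in Tln1 VPA 1). Whether the probe set covers the part of Tln1 that Cre removes is not known here, so its value checks no label. Over the 8 arrays Tln1 correlated with the proximal tubule marker mean at r = 0.92 and with the podocyte marker mean at r = -0.78. Both values carry the difference between the sets. The part of cell content in the Tln1 values was not tested.

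Tln2 stood at 7.98 and 8.15 in the control arrays. In the 3 Tln1 vehicle arrays it was at 7.47, 7.51 and 7.82, and in the 3 Tln1 VPA arrays at 7.12, 7.53 and 7.75. Every Tln1 array lay below both control arrays, and Tln1 VPA 1 was the lowest of all. Tln1 vehicle was at 0.73 times control (log2 change -0.46, SE 0.21, 95% interval -0.95 to 0.02, unadjusted p = 0.0574, adjusted p = 1.00). Tln1 VPA was at 0.66 times control (change -0.60, SE 0.21, 95% interval -1.08 to -0.12, unadjusted p = 0.0212, adjusted p = 1.00). The upper ends of these intervals are 1.01 and 0.92 times the control level. An exact permutation test over the arrays gave p = 0.20 in both comparisons, the smallest two-sided value that 2 against 3 arrays allow.

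The lower Tln2 was found in each array set. The changes in Tln1 vehicle were -0.49 in set 1 and -0.33 in set 2, and those in Tln1 VPA were -0.65 and -0.40. With a term for the array set the changes were -0.41 (SE 0.13, unadjusted p = 0.0178, adjusted p = 0.577) and -0.55 (SE 0.13, unadjusted p = 0.00462, adjusted p = 0.351), so the call was not reached either. In that fit 7.3% and 8.12% of all genes had an unadjusted p below 0.05 in these comparisons. The 2 comparisons share their control arrays and do not support each other. In set 1 the podocyte marker mean was lowest in control 1 (7.16, against 7.26 to 7.93 in the 4 Tln1 arrays), where Tln2 was highest. In set 2 it was highest in control 2 (9.16, against 8.84 and 8.57), as Tln2 was. Over the 8 arrays Tln2 and this mean correlated at r = 0.59, a value that carries the difference between the sets. In set 1 the Y-linked Eif2s3y differed as well, at 3.80 in control 1 against 5.43 to 7.71 in the Tln1 arrays. The part of podocyte content and of this difference in the Tln2 values was not tested.

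Tln2 and Tln1 were also compared within arrays. The Tln2 change was 0.49 units below the Tln1 change in Tln1 vehicle against control (a difference of -0.49; -0.47 in set 1 and -0.29 in set 2; exact permutation p = 0.40). For Tln1 VPA against control the difference was -0.54 (-0.51 and -0.35 in the sets; exact permutation p = 0.40). These permutations run over both sets at once. In the plot of both talins against the control array of the same set, the Tln2 bar is the longer one in each of the 6 arrays.

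**Figure D1:**
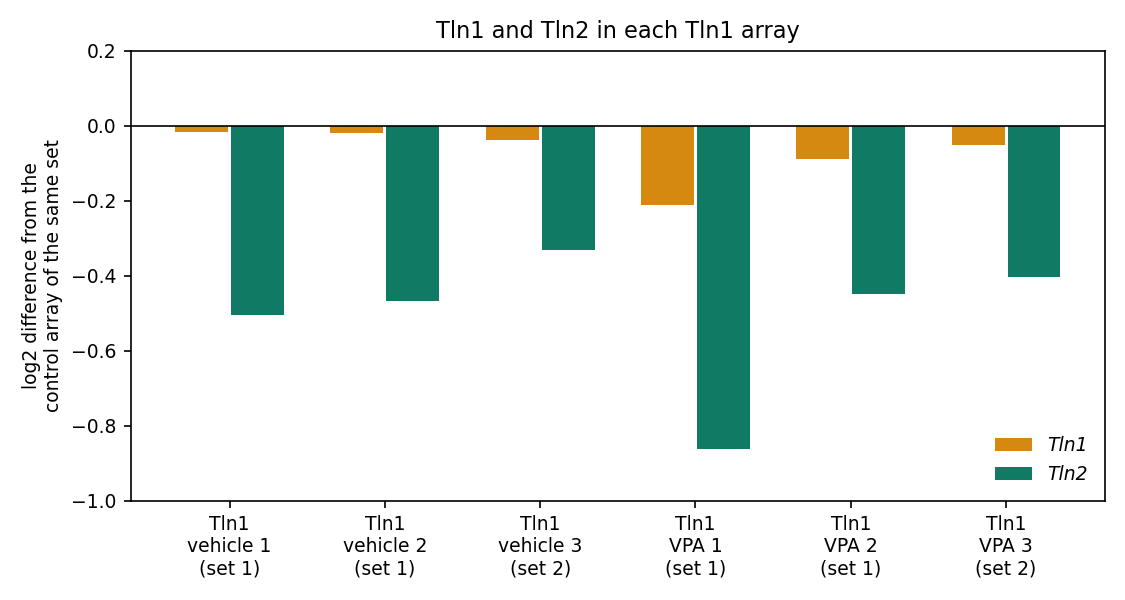
Log2 difference of Tln1 (orange) and Tln2 (green) from the control array of the same array set, 1 pair of bars for each of the 6 Tln1 arrays; there is 1 control array per set, so the bars have no error. Tln2 lies between -0.33 and -0.86 and Tln1 between -0.02 and -0.21.

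Vinculin, Vcl, was higher in all 6 Tln1 arrays than in both control arrays, the only one of the 7 genes for which this held. It stood at 8.75 and 8.73 in control, at 9.13, 8.91 and 8.85 in the 3 Tln1 vehicle arrays, and at 8.90, 8.91 and 9.14 in the 3 Tln1 VPA arrays. The 2 control arrays were nearly level, across the sets, and the Tln1 groups did not overlap with them. The changes from control were 0.22 (SE 0.14, 95% interval -0.11 to 0.54, adjusted p = 1.00, 0.14 without Tln1 vehicle 1) in Tln1 vehicle and 0.24 (SE 0.14, 95% interval -0.08 to 0.56, adjusted p = 1.00) in Tln1 VPA. Within sets 1 and 2 they were 0.27 and 0.11 for Tln1 vehicle and 0.15 and 0.40 for Tln1 VPA. So 1 of the 7 genes lay above control without overlap and 1 below in either comparison. Over all genes such a separation was found above control for 4.78% and below for 3.59% in Tln1 vehicle, and for 5.57% and 3.98% in Tln1 VPA.

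Vcl is also abundant in smooth muscle and mesangial cells. The mean of the 9 measured markers of those cells was 6.83 and 6.56 in the control arrays, 6.95 to 7.41 in Tln1 vehicle and 6.82 to 7.03 in Tln1 VPA. All 9 were higher in Tln1 vehicle than in control over all arrays, and 0 passed the test. Their median change was -0.15 in set 1, where their mean was higher in both Tln1 vehicle arrays than in control 1, and 0.81 in set 2. The part of this in the Vcl values was not tested.

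Kindlin 2, Fermt2, which binds the beta tail next to talin, showed a smaller difference that hung on 1 array. Its values were 7.53 and 7.83 in control, 7.94, 7.75 and 7.94 in the 3 Tln1 vehicle arrays, and 7.94, 7.83 and 7.79 in the 3 Tln1 VPA arrays. Only control 1 stands apart from the rest. The change in Tln1 vehicle was 0.20 (SE 0.14, adjusted p = 1.00; sets 0.32 and 0.11), and 0.04 without control 1. In Tln1 VPA it was 0.18 (SE 0.14, adjusted p = 1.00; sets 0.36 and -0.04), and 0.02 without control 1.

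The bases before the start of these genes are shown because Vcl and Fermt2 both hold a CArG box there, the element bound by serum response factor (SRF), a transcription factor that many genes of the actin cytoskeleton respond to. RefSeq windows (build GRCm38.p6) were found for 4 of the 7 genes, Tln1, Vcl, Fermt2 and Lims1, and the 250 bases upstream of the start were searched on both strands. Capitals mark the CArG box, whose first base lies 227 bases before the start in Vcl (chr14:20929148-20929397, plus strand) and 204 bases before it in Fermt2 (chr14:45530066-45530315, minus strand). The Tln1 window (chr4:43562584-43562833, minus strand) holds none and is given beside them.
Vcl: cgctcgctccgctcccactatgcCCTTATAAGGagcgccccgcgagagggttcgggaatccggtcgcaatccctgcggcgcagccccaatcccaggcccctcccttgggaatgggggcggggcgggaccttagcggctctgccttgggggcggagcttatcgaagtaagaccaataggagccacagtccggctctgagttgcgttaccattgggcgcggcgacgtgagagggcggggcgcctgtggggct
Fermt2: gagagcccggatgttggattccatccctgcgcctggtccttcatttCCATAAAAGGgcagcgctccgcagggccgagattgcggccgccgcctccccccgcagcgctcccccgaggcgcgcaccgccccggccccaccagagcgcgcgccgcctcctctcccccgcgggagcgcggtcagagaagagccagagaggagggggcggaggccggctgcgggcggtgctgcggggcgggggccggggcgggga
Tln1: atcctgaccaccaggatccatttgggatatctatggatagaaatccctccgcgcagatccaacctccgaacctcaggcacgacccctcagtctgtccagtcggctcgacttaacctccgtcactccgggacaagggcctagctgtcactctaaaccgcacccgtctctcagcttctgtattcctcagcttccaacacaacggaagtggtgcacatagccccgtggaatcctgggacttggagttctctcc

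None of the 3 Lims1 windows held a CArG box. It occurred in 1.47% of all 32851 windows of this length. Among the 13 actin and SRF-dependent smooth muscle genes listed, 11 had a window and 4 of these held the box: Actg1, Cnn2, Myl9 and Srf. Of the focal adhesion adaptors, Fhl2 held one. The 253 measured genes with the box had a median change of 0.02 in Tln1 vehicle against control, the same as the 16990 genes with any window (0.02). A match is a string of letters and no measured binding site.

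**Figure D2:**
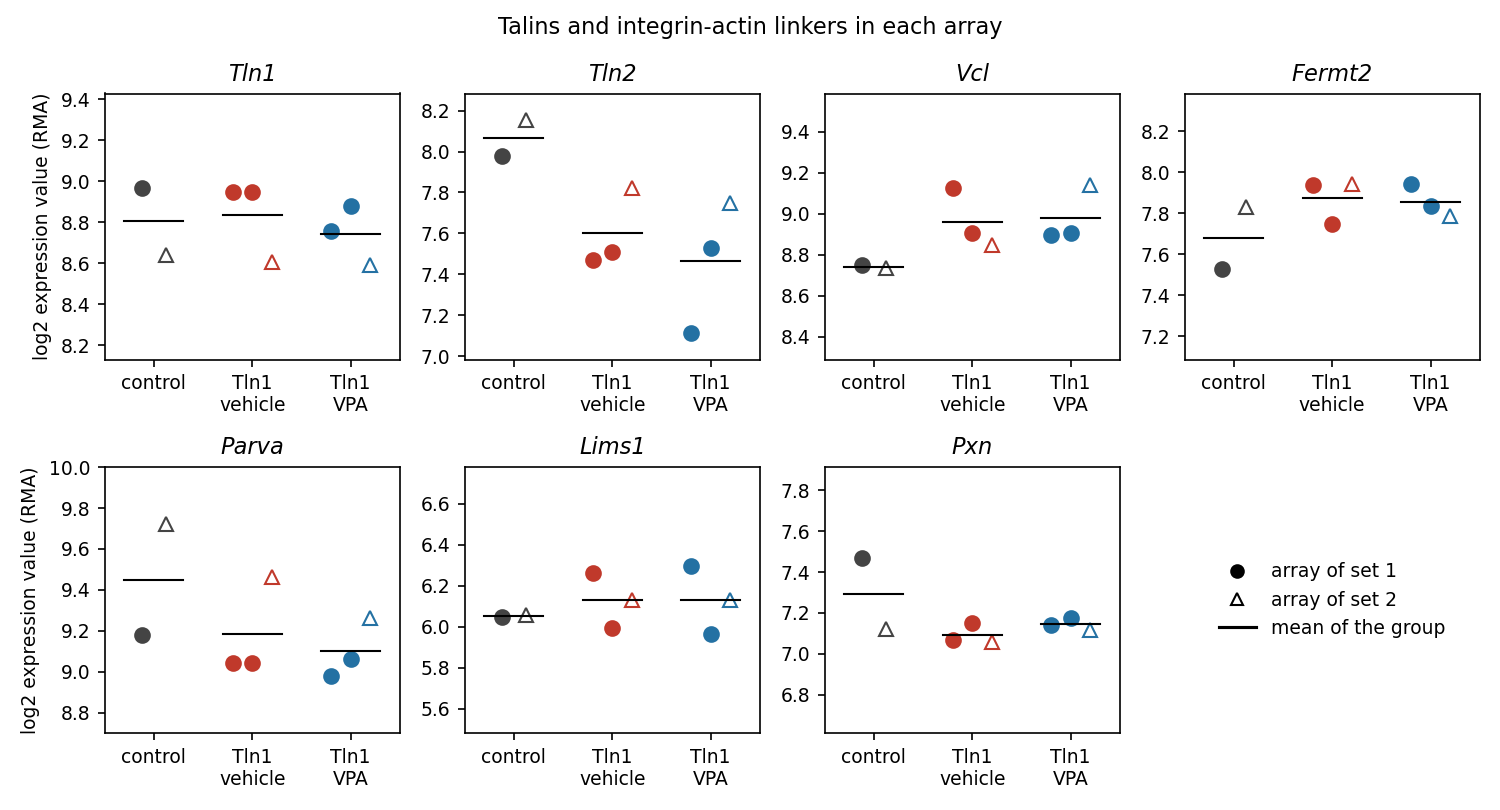
Log2 expression value of each of the 7 genes in each array, by group; filled circles are arrays of set 1, open triangles those of set 2, and lines are group means. All panels span 1.3 units. Tln2 is lower and Vcl higher in all 6 Tln1 arrays than in both control arrays, and the other 5 genes overlap.

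Parva and Lims1 are the listed partners of ILK that were measured. Parva, which links ILK to actin, stood at 9.18 and 9.72 in control, at 9.04, 9.04 and 9.46 in the 3 Tln1 vehicle arrays, and at 8.98, 9.06 and 9.26 in the 3 Tln1 VPA arrays. The groups overlap because each array of set 2 was high, by 0.39 (SE 0.07) over set 1. Within its own set, each Tln1 array was below its control array, with changes of -0.14 and -0.26 in Tln1 vehicle and -0.16 and -0.46 in Tln1 VPA. Over all arrays the changes were -0.27 (SE 0.21, adjusted p = 1.00, 0.0039 without control 2) and -0.35 (SE 0.21, adjusted p = 1.00, -0.08 without control 2). With a term for the array set the second was -0.28 (SE 0.09, unadjusted p = 0.0177, adjusted p = 0.500). Parva correlated with the podocyte marker mean at r = 0.86 over the 8 arrays, a value that carries the difference between the sets. The part of podocyte content in the Parva values was not tested.

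Lims1, the PINCH protein that anchors ILK, showed no separation of the groups. Its values were 6.05 and 6.06 in control, 6.26, 5.995 and 6.13 in the 3 Tln1 vehicle arrays, and 6.30, 5.96 and 6.13 in the 3 Tln1 VPA arrays. Both Tln1 groups lie on either side of the control arrays. The changes were 0.08 (SE 0.14, 95% interval -0.26 to 0.41, adjusted p = 1.00) in each comparison with control. Within sets 1 and 2 they were 0.08 and 0.07 in each.

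Paxillin, Pxn, was set apart by 1 control array when read across the sets. It stood at 7.47 and 7.12 in control, at 7.07, 7.15 and 7.06 in the 3 Tln1 vehicle arrays, and at 7.14, 7.18 and 7.12 in the 3 Tln1 VPA arrays. Control 1 is the high array, and control 2 lies among the others. Within its own set, each of the 6 Tln1 arrays was below its control array, with differences from -0.40 to -0.0036. The change was -0.20 (SE 0.13, adjusted p = 1.00; sets -0.36 and -0.06) in Tln1 vehicle, and -0.03 without control 1. In Tln1 VPA it was -0.15 (SE 0.13, adjusted p = 1.00; sets -0.31 and -0.0036), and 0.02 without control 1.

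Valproic acid was compared with vehicle in the Tln1 line to see what it changed. None of the 7 genes separated the Tln1 VPA arrays from the Tln1 vehicle arrays, where 1.98% of all genes did so above and 1.57% below. All 7 changes were small, with Tln2 furthest from 0 at -0.14 (SE 0.19, 95% interval -0.57 to 0.30, adjusted p = 1.00; sets -0.17 and -0.07), and it was 0.04 without Tln1 VPA 1. Tln1 was at -0.09 (SE 0.15, 95% interval -0.45 to 0.27; sets -0.13 and -0.01) and Vcl at 0.02 (SE 0.12, 95% interval -0.27 to 0.31; sets -0.11 and 0.29). Parva was at -0.08 (SE 0.19), Pxn at 0.05 (SE 0.12), Fermt2 at -0.02 (SE 0.13) and Lims1 at 0.0015 (SE 0.13). Within sets 1 and 2, Parva was at -0.02 and -0.20, Pxn at 0.05 and 0.06, Fermt2 at 0.05 and -0.16, and Lims1 at 0.0023 and 0. The interval of Tln2 runs from 0.67 to 1.23 times the vehicle level and that of Vcl from 0.83 to 1.24 times, so similarity was not shown. The Tln2 and Tln1 changes differed by -0.04 (exact permutation p = 0.90, where 3 against 3 arrays cannot go below 0.10).

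**Figure D3:**
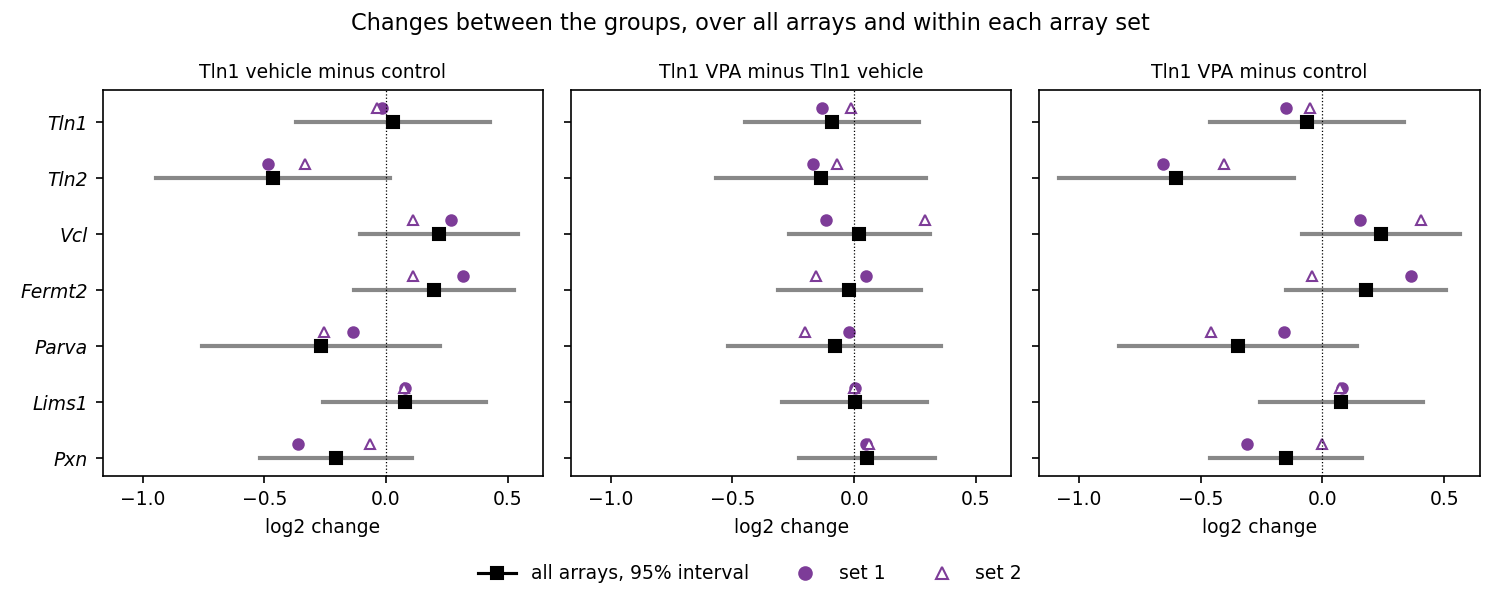
Log2 changes of the 7 genes in the 3 comparisons: squares are estimates over all arrays with their 95% intervals (grey), filled circles the change within set 1 and open triangles that within set 2. Only the interval of Tln2 in Tln1 VPA minus control, -1.08 to -0.12, leaves out 0, before adjustment over all genes.

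Around these genes, 85 further genes of integrin adhesion were measured in 6 lists, and 0 were called in any comparison. The lists were the relatives of kindlin and of the complex of ILK, PINCH and parvin (IPP), the proteins that switch talin and integrins on or off, focal adhesion adaptors and kinases, actin linkers, integrin chains, and actin with SRF-dependent genes of smooth muscle. In Tln1 vehicle against control, the list medians lay between -0.009 and 0.16, against 0.02 for all genes, of which 55.6% were higher. Of all genes, 4.78% lay above control without overlap and 3.59% below. On the list of actin and SRF-dependent smooth muscle genes, Acta2, Tagln and Cnn1 are also among the mesangial and smooth muscle markers. That list had the highest median, 0.16, with 11 of 13 higher, but the median was -0.13 in set 1 and 0.49 in set 2. There Myl9, a myosin light chain, was at 0.43 (SE 0.24; sets -0.0056 and 0.95, 0.07 without control 2), and Srf itself was the gene that lay lower without overlap (-0.24, SE 0.15; sets -0.28 and -0.13).

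Among the integrin chains, 7 of 12 were higher and 5 lower, with a median of 0.04. Itga8, the alpha chain of mesangial cells, had the smallest p of all lists at a change of 1.17 (SE 0.26, unadjusted p = 0.00243, adjusted p = 1.00). It stood at 6.55 and 6.22 in control, at 7.96, 7.41 and 7.29 in the 3 Tln1 vehicle arrays, and at 6.84, 6.95 and 6.33 in the 3 Tln1 VPA arrays. All Tln1 vehicle arrays lie above all others. Of the 12 chains, 2 lay above control without overlap and 0 below, against 4.78% and 3.59% of all genes. Itgb1, the beta chain shared by most matrix receptors, was at 0.23 (SE 0.14; sets 0.30 and 0.19, 0.13 without control 1), also without overlap.

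Of the 12 measured genes that control talin and integrins, 7 were higher and 5 lower (median 0.01). Rap1b, a small GTPase that brings talin to integrins, was at 0.35 (SE 0.19; sets 0.33 and 0.24, 0.19 without control 2), and Kank4, of a family that binds talin, at 0.33 (SE 0.20; sets 0.17 and 0.41, 0.10 without control 2). The 26 adaptors and kinases were split evenly, 13 higher and 13 lower. Fhl2, a LIM protein, was at 0.39 (SE 0.20; sets 0.10 and 0.69, 0.12 without control 2), and Pdlim7 at 0.28 (SE 0.15; sets 0.30 and 0.36, 0.17 without control 1). Fhl2 and Pdlim7 both lay above control without overlap. Of the 26 adaptors and kinases, 4 did so and 1 lay below. The 14 actin linkers were also even (7 and 7). Among them Enah, which promotes actin growth, was at -0.32 (SE 0.15) and ezrin, Ezr, at -0.15 (SE 0.12), both below control without overlap. Of the 14, 2 lay below in this way and 2 above. Over all genes the shares were 4.78% above and 3.59% below. The 8 kindlin and IPP relatives lay between -0.14 (Parvb) and 0.10, and Parvg was at -0.07 (SE 0.17). Parvg stood at only 3.35 to 3.88 over all arrays, below the median gene mean of 4.92. Within sets 1 and 2, Parvb was at -0.39 and 0.24 and Parvg at -0.12 and 0.09.

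With valproic acid against vehicle, the list medians lay between -0.01 and 0.09, against 0.003 for all genes. All 8 kindlin and IPP relatives were higher, by 0.00037 to 0.19, where 51.3% of all genes were. Parvg, below the median gene mean in every array, was at 0.19 (SE 0.16, 0.09 without Tln1 VPA 3). Ilkap, a phosphatase that binds ILK, was at 0.09 (SE 0.11, 0.05 without Tln1 VPA 1). Itga8 was at -0.84 (SE 0.23, unadjusted p = 0.00758, adjusted p = 1.00; sets -0.79 and -0.96), and Itgav at 0.23 (SE 0.16, 0.11 without Tln1 VPA 1). Itga8 is also on the list of mesangial and smooth muscle markers, of which 8 of 9 were lower (median -0.35; sets -0.22 and -0.32), and 8 of 9 endothelial markers were lower too (median -0.32; sets -0.22 and -0.61); 0 of either list were called, and their part in the Itga8 value was not tested. Enah was at 0.32 (SE 0.14; sets 0.27 and 0.43) with its groups apart, and Synpo, the synaptopodin of podocyte foot processes, at -0.32 (SE 0.25, -0.13 without Tln1 vehicle 3). Synpo is also a podocyte marker, and 9 of those 10 were lower (median -0.28; sets -0.25 and -0.20), with 0 called; their part was not tested. The adaptors Crk and Crkl were at 0.18 (SE 0.11, 0.10 without Tln1 vehicle 3) and 0.15 (SE 0.10). Crk and Crkl also lay above vehicle without overlap, and Itga8 and Myl9 below. Over all genes, 1.98% lay above without overlap and 1.57% below. Myl9 was at -0.44 (SE 0.21) and Srf at 0.18 (SE 0.13, 0.07 without Tln1 VPA 3), Kank4 at -0.36 (SE 0.18, -0.21 without Tln1 VPA 1) and Dlc1, a RhoGAP found at focal adhesions, at -0.22 (SE 0.15, -0.08 without Tln1 vehicle 3).

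In Tln1 VPA against control, medians lay between 0.0035 and 0.16, against 0.02 for all genes. Itga2, a collagen receptor chain, was at 1.31 (SE 0.66; sets 1.27 and 1.99, 0.68 without Tln1 VPA 3), with values from 5.39 to 7.43 in Tln1 VPA against 4.27 and 5.45 in control, and Itgb5 was at -0.35 (SE 0.16, -0.17 without control 2). Tes, a LIM protein that binds zyxin, was at 0.46 (SE 0.20; sets 0.72 and 0.0012) and Pdlim7 at 0.31 (SE 0.15; sets 0.35 and 0.35, 0.20 without control 1). Synpo was at -0.50 (SE 0.28; sets -0.24 and -0.69, -0.18 without control 2), and 9 of the 10 podocyte markers were lower (median -0.35; sets 0.32 and -0.60), with 0 called. Moesin, Msn, was at 0.28 (SE 0.17, 0.05 without control 2). Tagln, a smooth muscle actin-binding protein, was at 0.65 (SE 0.33; sets 0.51 and 0.61, 0.32 without control 2) and non-muscle myosin Myh9 at 0.21 (SE 0.13, 0.13 without Tln1 VPA 2). Rap1b was at 0.30 (SE 0.19, 0.15 without control 2) and Capn2, a protease that cleaves talin, at 0.15 (SE 0.15, 0.09 without control 1). Parvg was at 0.12 (SE 0.17, 0.02 without Tln1 VPA 3) and Ilkap at 0.08 (SE 0.13, -0.02 without control 2).

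**Figure D4:**
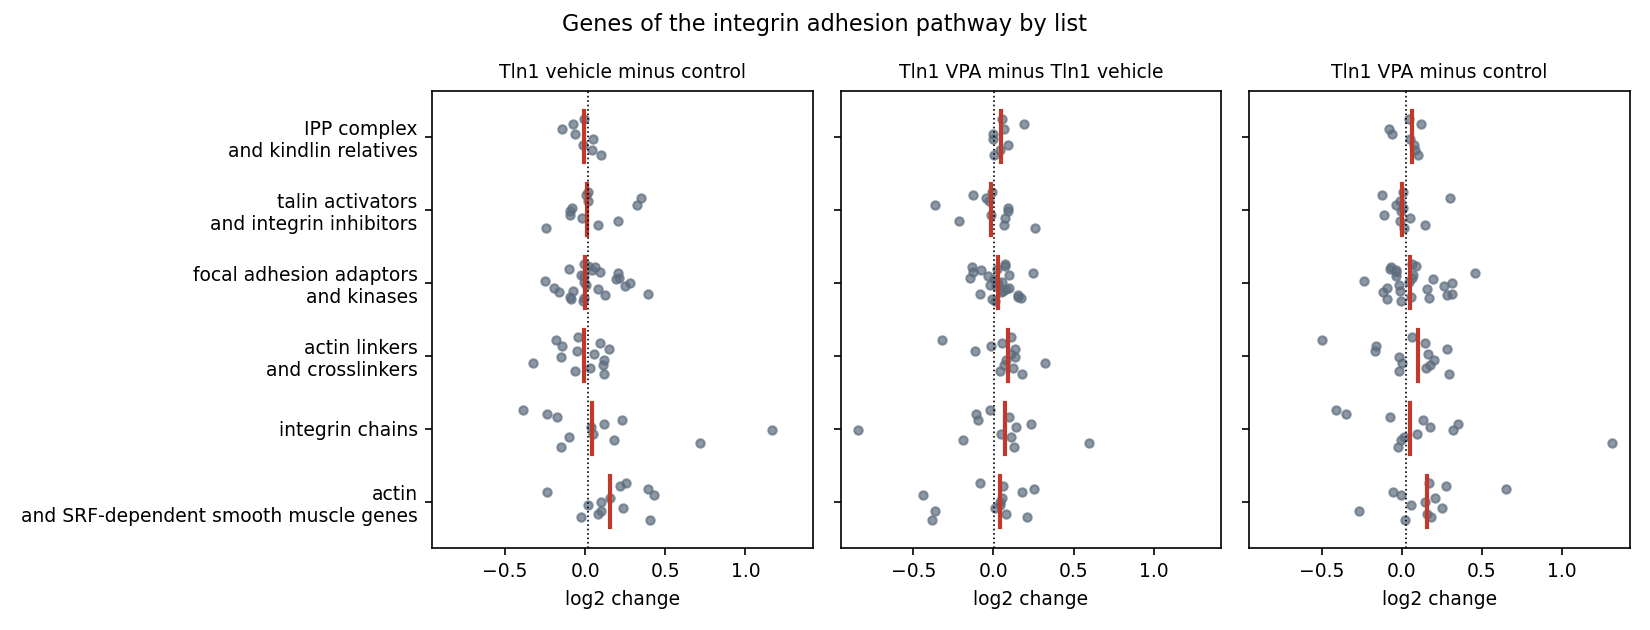
Log2 change of each measured gene (grey points) of the 6 lists in the 3 comparisons; red bars are list medians and the dotted line is the median of all genes. Most points lie near 0, and the point furthest out on the left panel is Itga8 at 1.17.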

How the data were processed

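Biotin-labelled cRNA from glomeruli was measured on Affymetrix arrays, 1 per sample, per the labels' protocols. The submitters' processing notes name RMA and limma, and the deposited values are on the log2 scale of RMA; tool versions and genome build: not given in the sources used here. Per gene, the probe set with 1 symbol and the highest mean over the 8 arrays was kept (22180 genes of 41345 probe sets; 23521 had 1 symbol, 1814 several and 16010 none in the platform annotation). The number of arrays limits the precision.

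One limma fit (limma 3.58.1, R 4.3.3; lmFit and eBayes, group only, two-sided) gave all comparisons, adjusted by Benjamini-Hochberg over all genes; genes were called at an adjusted p below 0.05. It was tested on simulated data. Exact permutation tests ran over arrays. Array sets came from clustering by correlation. Members, lists and alternatives were chosen with earlier results of these data known. From each list the text names the 2 genes with the smallest p per comparison. Deviations from the group means of Tln1 vehicle and Tln1 VPA arrays with the same number correlated across genes (r = 0.570, 0.609 and 0.787). Unlike numbers within set 1 gave 0.510 and 0.515, and unlike numbers across the sets gave -0.692 to -0.618. These values follow the array sets, since number 3 is the array of set 2 in both groups. No label states a pairing, and the main fit used none. Promoter bases are from RefSeq. Figures were drawn with matplotlib 3.10.9.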

Additional observations from a re-analysis of the deposited data

How the results depend on the processing

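The number of arrays, and 1 control array per array set, limit every value here. The changes of Tln2 and Vcl from control kept their sign under all 10 other settings, but several of these could not alter them. With 1 probe set per gene, averaging probe sets or fitting each probe set returns the same change. So do keeping genes above the median gene mean, trended and robust eBayes, and fitting only the 2 groups compared. Leaving out any single array could not turn the sign either, as these groups do not overlap. The changes of Tln2 ran from -0.59 to -0.41 in Tln1 vehicle and from -0.73 to -0.55 in Tln1 VPA. Among the 57 changes of the 7 genes and the pathway genes named, leaving out 1 array turned the sign of 12, among them Parva in Tln1 vehicle against control, from -0.27 to 0.0039. Under the other settings, Tln1 in Tln1 vehicle against control was -0.00479 with median centring, -0.020 with a term for the array set and -0.017 with the proximal tubule marker mean as a covariate, and Tln1 in Tln1 VPA against control was 0.033 with the replicate block. Lims1 in Tln1 VPA against Tln1 vehicle was -0.027 with quantile normalisation, -0.00914 with median centring and -0.00133 with the tubule covariate. The causes were not tested. The replicate block, a term for the array number, called 4 genes in Tln1 vehicle against control (Cyp2j13, Cyp2e1, Ces1f and Ces1g). In Tln1 VPA against control it called 1 (Ces1g), and all were named after their values were seen. No label pairs the numbers. Control and Tln1 vehicle deviations correlated at r = 0.609 for number 1 and -0.591 for number 2, whose arrays lie in different sets. The tubule covariate called 1 gene in Tln1 VPA against control, Slc16a4, likewise named afterwards. The replicate block changed no call of the 7 genes or of the pathway genes named. Leaving out 1 array at a time, Tln1 ran from -0.13 to 0.19 in Tln1 vehicle against control, from -0.22 to 0.10 in Tln1 VPA against control and from -0.21 to -0.017 in Tln1 VPA against Tln1 vehicle; Tln2 ran from -0.57 to -0.38, from -0.74 to -0.43 and from -0.28 to 0.039. The Tln2 minus Tln1 difference ran from -0.74 to -0.24, from -0.79 to -0.29 and from -0.26 to 0.18. In Tln1 vehicle against control, Parva ran from -0.54 to 0.0039 and Parvb from -0.27 to 0.015. In Tln1 VPA against control, Pxn ran from -0.33 to 0.024, Lims1 from -0.0060 to 0.16 and Ilkap from -0.025 to 0.18. In Tln1 VPA against Tln1 vehicle, Vcl ran from -0.057 to 0.10, Fermt2 from -0.086 to 0.013, Lims1 from -0.082 to 0.085 and Parva from -0.16 to 0.061. An alternative background correction was not run, since no scanner values were used here.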

Other observations

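The genes whose values over the 8 arrays were most like those of Tln1 were Gm10823, Pou5f1-rs4, Scgb1b24 and Nacad (Pearson r = 0.997, 0.992, 0.989 and 0.988), and those most like Tln2 were Caskin1, Fmr1os, Kcns2 and Gm14858 (r = 0.992, 0.978, 0.961 and 0.955). The 8 points come from both array sets, so these values carry the difference between the sets, and the means of all 8 genes lay below the median gene mean of 4.92.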
